A study of Mus musculus with 2 samples.

Results

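Among the cells of the retinal pigment epithelium (RPE) of mice given sodium iodate (NaIO3), 140 passed a threshold for transcripts of Ifit1 and Ifit3, genes induced by interferon. They were found by a rule on the single-cell counts. Barcodes of the NaIO3 library were kept if they had 500 or more genes and no more than 25% of their counts from the mitochondrial genome. A barcode was taken as RPE when Rpe65, Rlbp1, Rgr, Lrat and Rdh5, 5 genes of the visual cycle, summed to at least 100 counts per 10000 (CP10K), and as responding when Ifit1 and Ifit3 together had at least 5 unique molecular identifiers (UMIs). The rule found 140 responding cells of 2270 RPE cells, 6.17% (95% exact binomial interval 5.21 to 7.24%). The other 2130 RPE cells of the same library had 0 to 4 UMIs and are the cells the responding ones are set against. In the library of control mice 18 of 3627 RPE cells passed the same rule, 0.496% (0.294 to 0.783%). Both libraries together held 8676 barcodes.

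The RPE is the pigmented cell layer behind the photoreceptors. It recycles the visual pigment's chromophore, takes up shed outer segments and forms part of the blood-retina barrier. Interferons bind receptors that act through JAK kinases and transcription factors, Stat2 and Irf9 among them. These switch on a set of antiviral genes, among them the Ifit family, whose products bind foreign RNA, and genes that load peptides onto MHC class I. NaIO3 is an oxidant that injures the RPE. The treated C57BL/6J mice had received an intravenous dose of 20 mg/kg, and their controls phosphate-buffered saline (PBS). Cells were taken after 7 days of treatment from a pool of 6 mice for each group. After dispase digestion the neural retina was taken away and brown hexagonal cells were picked by hand, so the cells in the droplets are those that dissection kept. Age and sex are not stated. Each pool gave 1 library, so no difference below has a replicate check and none has a p-value. Intervals are exact, at 95%, and cover counting error alone.

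The promoters shown are those of the rule genes and of genes described below whose window holds the sequence an interferon response is known to act through. Interferon-activated factors, Stat2 with Irf9 among them, bind the interferon-stimulated response element, whose core was searched as GAAANNGAAA or, on the opposite strand, TTTCNNTTTC. The windows are the 250 bases before the RefSeq start of each gene, on build GRCm38.p6, read 5′ to 3′ on the gene's strand, with each match in capitals. Ifit1 (chr19:34640639-34640888, plus strand) and Ifit3 (chr19:34583279-34583528, plus strand), the genes of the rule, had 2 matches each. The windows of Rsad2 (chr12:26456453-26456702, minus strand) and Cxcl10 (chr5:92348890-92349139, minus strand) had 1 match each, and that of Isg15 (chr4:156200819-156201068, minus strand) had 3 overlapping ones. Irgm1 (chr11:48871421-48871670, minus strand) had 2 overlapping matches, the last of them ending 14 bases before the start. No match stood in the windows of Cmpk2, Ifit2, Irf7, Herc6 and Cd274, which were also higher in responding cells. B2m (chr2:122147437-122147686, plus strand) is shown as a gene with 1 match whose level was close in responding and other cells.
Ifit1: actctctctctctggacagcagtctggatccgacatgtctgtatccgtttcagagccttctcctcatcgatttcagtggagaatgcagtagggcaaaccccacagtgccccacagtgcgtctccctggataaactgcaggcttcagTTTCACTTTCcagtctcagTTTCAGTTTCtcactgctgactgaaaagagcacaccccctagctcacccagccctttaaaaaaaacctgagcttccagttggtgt
Ifit3: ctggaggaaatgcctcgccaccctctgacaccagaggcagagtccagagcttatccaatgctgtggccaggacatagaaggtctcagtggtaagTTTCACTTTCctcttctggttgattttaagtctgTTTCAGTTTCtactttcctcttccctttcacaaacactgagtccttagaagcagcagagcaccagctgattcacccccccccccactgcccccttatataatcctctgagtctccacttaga
Rsad2: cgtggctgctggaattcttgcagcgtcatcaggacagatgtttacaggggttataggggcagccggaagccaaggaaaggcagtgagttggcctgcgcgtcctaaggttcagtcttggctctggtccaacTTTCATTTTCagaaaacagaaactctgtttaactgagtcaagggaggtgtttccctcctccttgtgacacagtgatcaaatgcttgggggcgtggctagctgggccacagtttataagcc
Cxcl10: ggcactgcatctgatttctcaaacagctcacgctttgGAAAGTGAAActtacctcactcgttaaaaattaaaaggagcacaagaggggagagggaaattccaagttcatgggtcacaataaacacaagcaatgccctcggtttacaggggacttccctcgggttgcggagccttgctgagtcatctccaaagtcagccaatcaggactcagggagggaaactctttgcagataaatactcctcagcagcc
Isg15: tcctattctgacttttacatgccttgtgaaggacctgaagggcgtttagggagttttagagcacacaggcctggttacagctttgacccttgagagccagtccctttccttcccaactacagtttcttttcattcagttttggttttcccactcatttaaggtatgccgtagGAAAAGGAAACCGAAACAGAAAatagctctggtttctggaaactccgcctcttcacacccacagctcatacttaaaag
Irgm1: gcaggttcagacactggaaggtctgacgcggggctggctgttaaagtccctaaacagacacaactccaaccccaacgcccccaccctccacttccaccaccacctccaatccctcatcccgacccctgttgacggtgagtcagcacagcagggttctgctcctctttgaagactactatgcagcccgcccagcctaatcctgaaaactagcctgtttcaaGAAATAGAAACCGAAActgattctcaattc
B2m: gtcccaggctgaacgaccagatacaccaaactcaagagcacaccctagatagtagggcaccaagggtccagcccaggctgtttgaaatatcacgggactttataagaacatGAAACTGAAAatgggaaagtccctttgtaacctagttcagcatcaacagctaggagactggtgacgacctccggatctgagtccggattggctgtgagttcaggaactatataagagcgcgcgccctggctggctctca

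Of the 133 genes that were at least 2-fold higher in responding cells (below), 100 had a window in the RefSeq table, and 23 of those (23%) held the core. Of the 20 higher genes named by rank 15 had a window, and 9 of these held it (60%, 32.3 to 83.7%). Of the 104 matched genes at 0.5-fold or less, 3 held it (2.88%). Over the 7841 matched genes with enough counts to be compared the share was 3.04%, and over all 27025 genes of the table it was 3.46%. The gamma-activated site, searched as TTCNNNGAA, which reads the same on both strands, stood in 14% of the 100 higher genes and in 11.5% of the 104 lower ones, against 6.85% of the 7841. In 18 windows of the table a match to one motif overlapped a match to the other. A match describes these letters in this window and is not evidence of binding.

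Responding cells held far more of the rule genes than the threshold asks. Their Ifit1 and Ifit3 UMIs ran from 5 to 314 per cell with a median of 25, and 77 of the 140 cells (55%) had 20 or more. As sums over cells, Ifit1 stood at 1399.5 CPM (UMIs scaled to 1000000 per group) in responding cells, 16.4 CPM in other NaIO3 RPE cells and 3.06 CPM in PBS RPE cells. Ifit3 stood at 1449, 43.3 and 27.0 CPM in the same groups. These values chose the cells and are given as a description. Just inside the threshold were 11 cells with 5 UMIs, and just outside were 36 cells with 4 UMIs, whose median depth of 20118 UMIs was above that of the responding cells. The wider classes above held 25 cells at 10 to 19 UMIs and 36 at 20 to 49. At 20 UMIs or more there were 77 NaIO3 RPE cells (3.39%, 2.69 to 4.22%) and 2 PBS RPE cells (0.0551%).

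**Figure D1:**
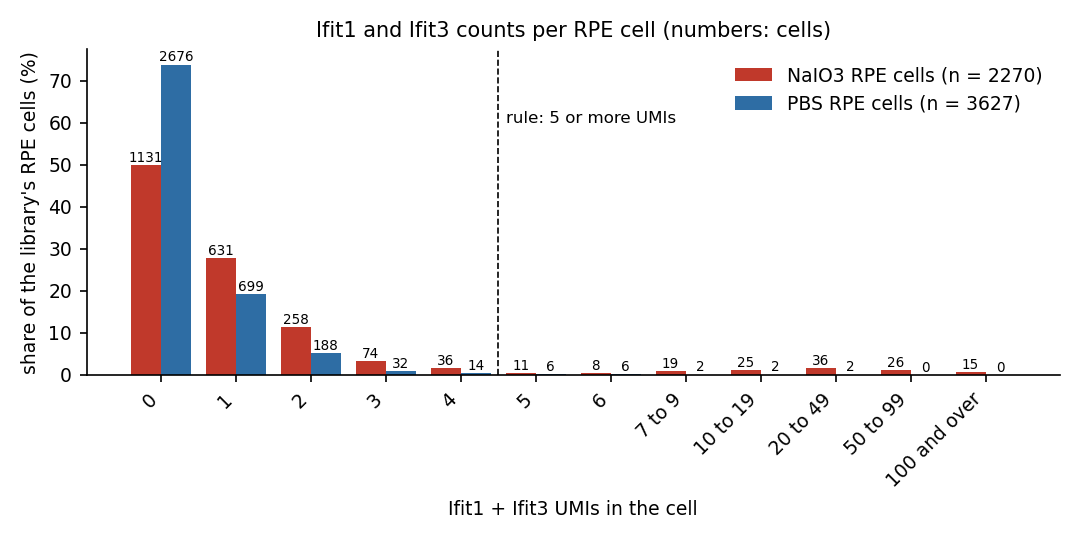
Share of each library's RPE cells (percent, vertical axis) by the number of Ifit1 and Ifit3 UMIs in the cell (horizontal axis), for NaIO3 (red, n = 2270) and PBS (blue, n = 3627), with the number of cells above each bar and the threshold as a dashed line. From 50 UMIs on stand 26 and 15 NaIO3 cells in the last pair of classes and 0 PBS cells.

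The libraries had like totals, 51168520 UMIs in NaIO3 and 51055592 in PBS, and 24 barcodes were found in both, 1 of them a responding cell. Responding cells were deeper, with a median of 12449 UMIs against 9605.5 in other NaIO3 RPE cells and 11491 in PBS RPE cells, and had a median of 9.63% mitochondrial counts against 11.8% and 8.21%. A threshold in UMIs is passed more easily by a deep cell, and with every cell thinned to 4000 UMIs 96 cells still passed. All 5 RPE genes of the rule together came to a median of 187 CP10K in responding cells, 181 in other NaIO3 RPE cells and 208 in PBS RPE cells. Barcodes close to the RPE threshold were few, 72 NaIO3 barcodes at 80 to 100 CP10K and 128 at 100 to 120. Genes of the RPE outside the rule are given further on.

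Markers of other cell types were partly at like levels in both groups of NaIO3 RPE cells and partly higher in the sum over responding cells. The 8 macrophage markers summed to a median of 14.1 CP10K in responding cells (7.21 to 58.2, no marker at 0), 15.7 in other NaIO3 RPE cells and 0.697 in PBS RPE cells. The 8 markers of surface epithelium, the cells of cornea and conjunctiva, summed to 16.9, 17.6 and 2.14 CP10K in the same order. As sums over cells the markers of fibroblasts had a ratio of responding to other cells of 3.50 (3.14 to 3.89), those of neutrophils 2.51 (1.73 to 3.58) and those of endothelium 2.38 (1.77 to 3.15). In each of these lists the median responding cell was at 0, the 95th percentile was 2.16, 0.734 and 0.947 CP10K, and the highest reached 77.6, 51.5 and 18.4 CP10K. The cell at 77.6 CP10K held 285 of the 310 UMIs of the fibroblast marker Dcn in responding cells. The fibroblast sum thus rested largely on 1 barcode. The markers of Müller glia were at 50 CP10K or more in all 140 responding and all 2130 other cells, and those of melanocytes in 9 and 83, so both lists were set aside. Barcodes at 50 CP10K or more over the markers of one of the remaining cell types were 9 of 140 responding cells (6.43%, 2.98 to 11.9%) and 28 of 2130 other cells (1.31%, 0.875 to 1.89%). Without these barcodes, an alternative chosen after seeing the data, 131 responding cells remained and the ratio of Rsad2 between the groups was 98.7, against 94.7 with them.

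Summed over cells, 10156 genes other than Ifit1 and Ifit3 had at least 100 UMIs over the responding and other NaIO3 RPE cells. Of these, 133 genes (1.31%) stood at least 2-fold higher in responding cells and 133 (1.31%) at 0.5-fold or less, and the median log2 ratio was -0.05. Of the 133 higher genes 31 are in a list of interferon-stimulated genes, and 51 are in that list or in a list of nucleic acid sensors, interferon factors, their inhibitors, MHC class I genes or chemokines. The rest are in none of these. The counting interval lay wholly at 2-fold or more for 77 genes and wholly at 0.5-fold or less for 2 genes, Serpine3 and AU020206, of which AU020206 had 1 UMI in responding cells and 59.2 CPM in macrophage-marker barcodes. In 13 of the 133 higher genes a single responding cell held over 50% of the group's UMIs.

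**Figure D2:**
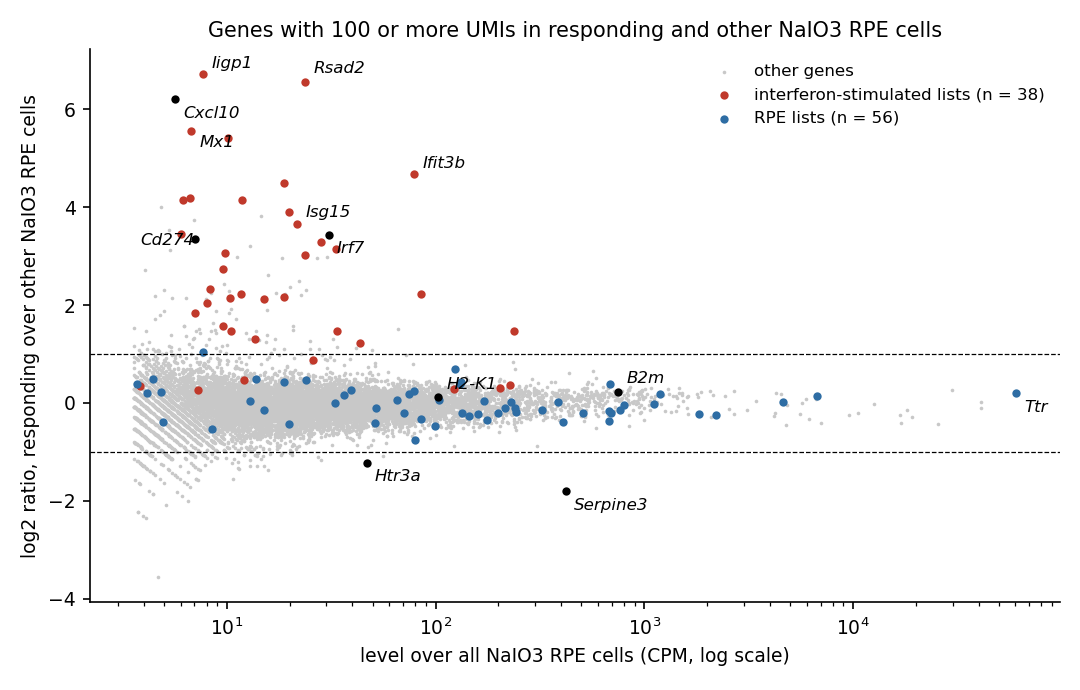
Log2 ratio of responding over other NaIO3 RPE cells (vertical axis) against the level over all NaIO3 RPE cells in CPM (horizontal axis, log scale), 1 point per gene with 100 or more UMIs (n = 10156), with dashed lines at 2-fold. The interferon-stimulated genes (red, n = 38) all lie above 0 and reach 6.72 for Iigp1, while the RPE genes (blue, n = 56) lie within 2-fold except Vax2 at 1.04.

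The list of interferon-stimulated genes held 65 names, of which 63 were in the files and 54 had 20 or more UMIs. With 100 or more UMIs there were 38, of which 38 were above 1 and 31 at 2-fold or more, against 1.31% of all genes. Over the 54 genes the median log2 ratio was 2.19. As a sum the 63 genes stood at 4655 CPM in responding cells, 1182 in other NaIO3 RPE cells and 961 in PBS RPE cells, a ratio of responding to other cells of 3.94 (3.85 to 4.03). This sum, and the summed interferon genes given per cell below, hold Ifit3b, a close copy of Ifit3, at 661, 25.8 and 19.8 CPM. For 10 of the 63 genes the level in responding cells was under 0.1 of that in another cell class of the library, and the part of RNA released from those cells was not tested.

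Rsad2 encodes viperin, an endoplasmic reticulum enzyme that makes a chain-terminating nucleotide. It had 591 UMIs in 79 of the 140 responding cells and 68 UMIs in 66 of the 2130 other cells, that is 254 CPM in responding cells, 2.68 in other NaIO3 RPE cells and 0.371 in PBS RPE cells. The ratio was 94.7 (73.6 to 124), and it was 53.4 in cells at or above 200 CP10K of the RPE genes, 49.2 with a threshold of 3 Ifit1 and Ifit3 UMIs, 171 after thinning and 179.5 with a threshold of 20 UMIs. The other higher genes named by rank, Edn3 aside, also had lower ratios at 3 UMIs and higher ones at 20. Per cell it ran from 0 to 39.8 CP10K with a median of 0.643 in responding cells, while no other NaIO3 RPE cell was above 2.15 and no PBS RPE cell above 1.15. With all cells thinned to 4000 UMIs, 40% of responding cells had a UMI, against 1.08% of other NaIO3 RPE cells and 0.143% of PBS RPE cells. Among the 56 barcodes with rod markers, photoreceptors that served as a check on RNA released from other cells (median depth 7174.5 UMIs), 2 had one (3.57%). The groups of RPE cells overlapped up to 2.15 CP10K, and among RPE cells values above it occurred in responding cells alone. A rod-marker barcode reached 4.18 CP10K. The neighbouring Cmpk2, a mitochondrial nucleotide kinase read from the opposite strand, stood at 95.8, 2.25 and 1.57 CPM in responding, other NaIO3 and PBS RPE cells, a ratio of 42.6 (31.7 to 58.0).

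Iigp1 encodes an immunity-related GTPase that acts on the vacuoles of parasites in mouse cells. It had 193 UMIs in 49 responding cells and 20 UMIs in 17 other cells, which gave 82.9 CPM in responding cells, 0.789 in other NaIO3 RPE cells and 0.284 in PBS RPE cells and a ratio of 105 (66.2 to 176). The ratio was 51.3 with a threshold of 3 UMIs, 61.9 at 10% mitochondrial counts, 191 after thinning and 202 with a threshold of 20 UMIs. After thinning 25.7% of responding cells, 0.282% of other NaIO3 RPE cells and 0.114% of PBS RPE cells had a UMI. Cxcl10 encodes a chemokine that draws activated T cells. It stood at 58.4, 0.789 and 0.197 CPM in the same groups, a ratio of 74.1 (46.1 to 125), but only 15 responding cells had any and 3 of them held 108 of its 136 UMIs. Of those 15 cells 13 also had Rsad2. Cxcl10 was therefore the most unevenly spread of the 3 marker genes: its highest responding cell reached 38.7 CP10K and its median cell had 0. Its ratio moved with the cells used, being 30.0 in cells at or above 200 CP10K of the RPE genes and 177 in cells within the interquartile range of the responding cells' depth. In the fibroblast-marker barcodes of this library Iigp1 and Cxcl10 stood at 95.6 and 101.8 CPM, above the responding RPE cells. For Rsad2 the highest other cell class was endothelium, at 36.4 CPM.

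Genes whose products bind or process RNA were led by Ifit3b and Ifit2, relatives of the rule genes. Ifit3b stood at 661 CPM in responding cells, 25.8 in other NaIO3 RPE cells and 19.8 in PBS RPE cells, a ratio of 25.6 (23.4 to 28.1). How reads that match several genes were counted is not given in the sources used here, so Ifit3b, a close copy of Ifit3, is not separate evidence. Ifit2, which binds AU-rich RNA, stood at 49.4, 2.72 and 1.97 CPM, a ratio of 18.2 (13.4 to 24.8). Eif2ak2, the kinase that halts translation on double-stranded RNA, had a ratio of 4.35, and the oligoadenylate synthetase-like genes Oasl1 and Oasl2 had 4.13 and 3.56. Adar, which edits double-stranded RNA, had 1.84. In all 5 of the 7 genes of this group with 100 UMIs were at 2-fold or more. The classical synthetases that feed RNase L were hardly seen: Oas1a, Oas2 and Oas3 had 13, 5 and 3 UMIs in responding cells.

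The ISG15 system, which tags proteins with a ubiquitin-like peptide, was high throughout, with 4 of 4 genes at 2-fold or more and a summed level of 359, 29.2 and 8.84 CPM in responding, other NaIO3 and PBS RPE cells. Isg15, the tag itself, stood at 139 CPM in responding cells, 10.9 in other NaIO3 RPE cells and 1.70 in PBS RPE cells, a ratio of 12.7 (10.8 to 14.97). It had a UMI in 27.9% of responding cells, 4.74% of other NaIO3 RPE cells and 0.656% of PBS RPE cells after thinning, and in 8.93% of rod-marker barcodes. Its share in other NaIO3 RPE cells was thus below that of a cell type used as a check, and it cannot be told from free RNA there. Usp18, the protease that removes the tag and also holds back the interferon receptor, stood at 150, 6.66 and 2.62 CPM, a ratio of 22.5 (18.7 to 27.2). Herc6, the ligase for the tag in mice, and Ube2l6, the conjugating enzyme, had ratios of 11.02 and 4.99.

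The interferon-inducible GTPases had 6 of 6 genes at 2-fold or more and a summed level of 625 CPM in responding cells, 64.0 in other NaIO3 RPE cells and 63.0 in PBS RPE cells. Gbp7, a guanylate-binding protein, stood at 178, 20.0 and 24.8 CPM, a ratio of 8.90 (7.80 to 10.2), so the other NaIO3 RPE cells did not stand above PBS for it. Irgm1, which steers the family of GTPases to membranes, stood at 136, 9.07 and 5.85 CPM, a ratio of 15.01 (12.6 to 17.9). Igtp, Gbp3 and Ifi47 had ratios of 8.35, 4.48 and 4.41. Tgtp1, with 67 UMIs in responding cells and 22 in other cells, fell short of 100 UMIs and had a ratio of 33.2 (20.2 to 56.4).

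Among the other antiviral effectors 16 of 21 genes were at 2-fold or more and 21 of 21 were above 1. Mx1, of the family of dynamin-like GTPases, stood at 65.3 CPM in responding cells, 1.38 in other NaIO3 RPE cells and 0.131 in PBS RPE cells, a ratio of 47.3 (32.6 to 70.4). Trim30a, a ligase that curbs inflammatory signalling in mice, stood at 87.2, 4.89 and 2.14 CPM, a ratio of 17.8 (14.2 to 22.5), and the nearby Trim30d had 13.3. Parp14, an ADP-ribosyltransferase, and Rtp4, a chaperone of membrane receptors, had ratios of 17.8 and 9.84. Bst2, or tetherin, which holds budding virus at the cell surface, was already present in most RPE cells at 572, 207 and 164 CPM, a ratio of 2.76 (2.60 to 2.93). Ifitm3, which hinders virus entry, stood at 304, 65.5 and 37.7 CPM, a ratio of 4.65 (4.25 to 5.08). After thinning it had a UMI in 50.7%, 21.1% and 12.3% of responding, other NaIO3 and PBS RPE cells, and in 30.4% of rod-marker barcodes. The level of Ifitm3 in other NaIO3 RPE cells thus cannot be told from free RNA. The related Ifitm1 and Ifitm2 had ratios of 1.23 each and Ifi27 had 1.29, so the effectors with a high level in other RPE cells had small ratios.

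Of the sensors of nucleic acids, 4 of viral RNA with 100 UMIs were at 2-fold or more in responding cells, and those of DNA were rarely seen. Tlr3, the endosomal receptor for double-stranded RNA, stood at 88.5 CPM in responding cells, 17.9 in other NaIO3 RPE cells and 12.7 in PBS RPE cells, a ratio of 4.94 (4.17 to 5.84). The cytoplasmic helicases Ddx58 (RIG-I) and Ifih1 (MDA5) had ratios of 4.64 (3.89 to 5.52) and 7.93 (6.28 to 9.98). Ddx60, a related helicase, stood at 34.4, 2.13 and 0.939 CPM, a ratio of 16.1 (11.3 to 23.2), and Dhx58 (LGP2) had 9.25 with 45 UMIs. The adaptor Mavs, downstream of the helicases, had 0.773 (0.477 to 1.19), and the kinase Tbk1 had 1.01 (0.730 to 1.38). The DNA sensor Mb21d1 (cGAS) and its adaptor Tmem173 (STING) had 1 UMI each in responding cells. Over the list 4 of 8 genes with 100 UMIs were at 2-fold or more. Over the 15 genes with 20 UMIs the median log2 ratio was 0.02, with 6 at 2-fold or more and 3 at 0.5-fold or less. These 3, Tlr7 (0.259), Aim2 (0.389) and Tmem173 (0.403), had 1 UMI each in responding cells, and their intervals reach above 1.

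Of the factors that carry the signal 5 of 8 were at 2-fold or more. Irf7, which amplifies type I interferon, stood at 183 CPM in responding cells, 16.8 in other NaIO3 RPE cells and 3.28 in PBS RPE cells, a ratio of 10.9 (9.48 to 12.5). Per cell it reached 21.4 CP10K in responding cells, with a median of 1.24, and 5.72 in other cells. After thinning 42.1%, 7.42% and 1.26% of responding, other NaIO3 and PBS RPE cells had a UMI, and 21.4% of rod-marker barcodes did. The level of Irf7 in other NaIO3 RPE cells thus cannot be told from free RNA. Stat2 and Irf9, which act together in the type I response, had ratios of 6.13 (5.01 to 7.48) and 2.98 (2.42 to 3.64). Irf1 had 2.19, while Irf3, which is switched on by phosphorylation and not by transcription, had 0.784 (0.625 to 0.971). Socs1, an inhibitor of JAK kinases, had a ratio of 10.9 (6.72 to 17.7) with 37 UMIs in each group.

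The receptors and JAK kinases were at like levels in both groups. The list summed to 120 CPM in responding cells, 114 in other NaIO3 RPE cells and 92.4 in PBS RPE cells, a ratio of 1.06 (0.931 to 1.19), and 0 of 8 genes reached 2-fold either way. Ifnar1 and Ifnar2, the chains of the type I interferon receptor, had ratios of 0.956 (0.596 to 1.47) and 1.29 (0.913 to 1.78). The interferons themselves were not detected in the responding cells: all 10 ligand genes had 0 of 2328665 UMIs, which allows up to 1.58 CPM for each (exact Poisson bound). In the other NaIO3 RPE cells 2 UMIs of Ifng were counted and 0 of the rest.

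Antigen presentation by MHC class I divided into genes that were higher in responding cells and genes that were high in all NaIO3 RPE cells. Of 19 genes 9 were at 2-fold or more and 16 were above 1. Tap1, a chain of the peptide transporter, stood at 38.2 CPM in responding cells, 7.10 in other NaIO3 RPE cells and 1.57 in PBS RPE cells, a ratio of 5.39 (4.13 to 6.98). Psmb8, a subunit of the immunoproteasome, stood at 50.7, 18.02 and 3.65 CPM, a ratio of 2.81 (2.28 to 3.45), and Psmb9 had 2.84. The non-classical genes H2-Q4, H2-T22 and H2-T23 had ratios of 4.44, 3.71 and 3.69. The classical heavy chains were close in both NaIO3 groups. H2-K1 stood at 111, 102 and 33.8 CPM, a ratio of 1.09 (0.953 to 1.24), and H2-D1 at 135, 127 and 24.1 CPM, a ratio of 1.06 (0.944 to 1.19). Their light chain B2m stood at 866, 740 and 560 CPM, a ratio of 1.17 (1.12 to 1.23). After thinning H2-D1 had a UMI in 38.6% of responding cells, 40.6% of other NaIO3 RPE cells and 8.19% of PBS RPE cells, but also in 60.7% of the rod-marker barcodes, and for H2-K1 that share was 46.4%. Their levels in NaIO3 RPE cells thus cannot be told from free RNA. H2 genes are near-identical copies, and how reads shared between them were counted is not given in the sources used here.

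**Figure D3:**
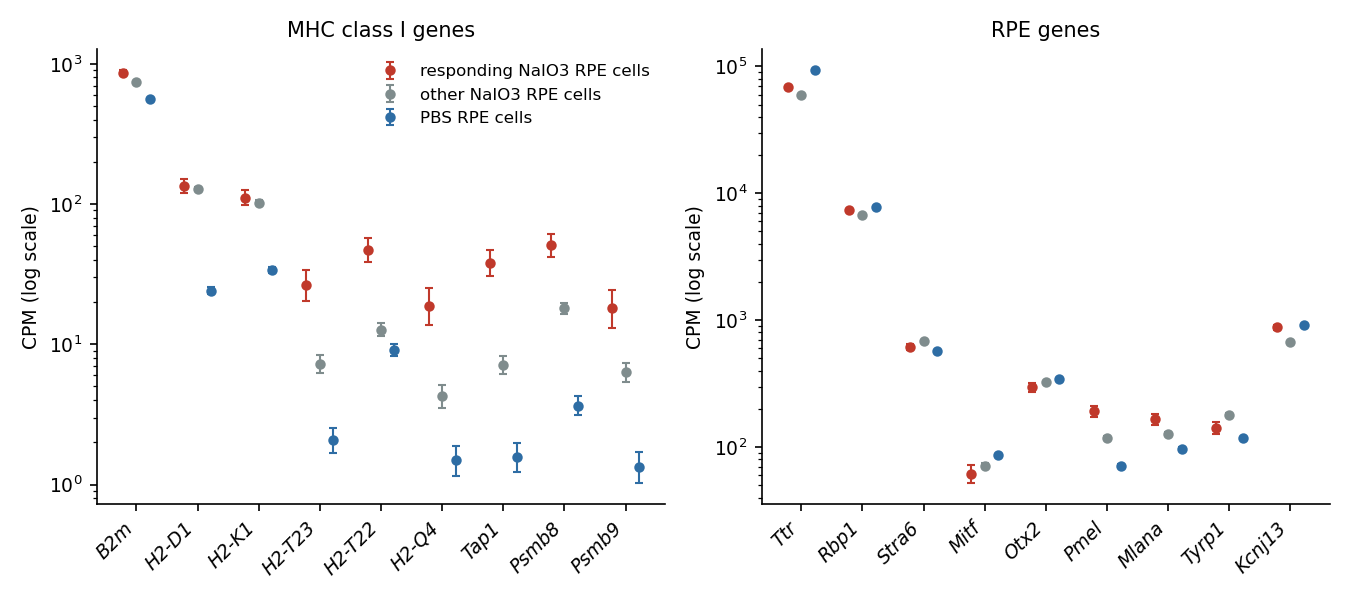
Summed level in CPM (vertical axes, log scale) of MHC class I genes (left) and RPE genes (right) in responding NaIO3 RPE cells (red), other NaIO3 RPE cells (grey) and PBS RPE cells (blue), with exact Poisson 95% intervals. For H2-D1 and H2-K1 both NaIO3 groups lie close together above PBS, for Tap1 and Psmb8 the responding cells lie above both, and for the RPE genes the groups lie within 2-fold of each other except Pmel, at 191 against 70.7 CPM in responding and PBS cells.

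Few other immune genes with 100 UMIs were higher. Cd274, which encodes the T cell inhibitor PD-L1, stood at 40.4 CPM in responding cells, 3.94 in other NaIO3 RPE cells and 1.68 in PBS RPE cells, a ratio of 10.2 (7.64 to 13.7). It had UMIs in 45 responding cells. After thinning 17.9%, 1.502% and 0.685% of responding, other NaIO3 and PBS RPE cells had a UMI, and 0 of the 56 rod-marker barcodes did, which allows up to 5.36%. Of the chemokines with 100 UMIs 2 of 7 were at 2-fold or more, Cxcl10 and Cxcl12, and 47.6% of the Cxcl12 UMIs of responding cells lay in 1 cell. With 20 UMIs 5 of 13 chemokines were at 2-fold or more and 1 at 0.5-fold or less. Of genes that lean on interferon gamma 1 of 6 with 100 UMIs was at 2-fold or more, Irf1. Of the 10 such genes with 20 UMIs 4 were at 2-fold or more and 0 at 0.5-fold or less. Cxcl9, the chemokine most bound to interferon gamma, had 4 UMIs in responding cells, Ido1 had 0 and Ciita had 0. Of 6 MHC class II genes 0 were at 2-fold either way. The cytokines Il6 and Tnf had 0 UMIs in responding cells, against 1 and 17 UMIs in the other NaIO3 RPE cells.

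The response was graded with the rule genes. Over cells with 0, 1 to 2, 3 to 4, 5 to 9, 10 to 19, 20 to 49 and 50 or more Ifit1 and Ifit3 UMIs, the summed interferon-stimulated genes had a median of 10.5, 11.01, 13.1, 17.8, 24.8, 53.1 and 88.9 CP10K per cell. Ifit3b, a close copy of Ifit3, is part of this sum and stood at 24.7 CPM in the first class and 1518 CPM in the last. After thinning to 4000 UMIs the median number of the summed genes with a UMI was 3, 3, 4, 6, 8, 12 and 17. Cells of 0 to 4 UMIs thus lay close together, and the step began at 5 to 9 UMIs. The 4 classes of responding cells held 38, 25, 36 and 41 cells. Rsad2 stood at 2.39, 2.89, 3.08, 3.99, 41.3, 170 and 677 CPM over the 7 classes, so that cells of 5 to 9 UMIs did not differ from those below beyond counting error. Isg15 stood at 10.3, 11.6, 10.1, 29.2, 101, 161 and 258 CPM and Irf7 at 17.8, 15.6, 17.6, 30.6, 72.3, 213 and 378 CPM, which were higher from 5 UMIs on. Gbp7 stood at 21.2, 18.3, 22.9, 22.6, 67.1, 155 and 413 CPM, following Rsad2. H2-K1 was flat, at 101, 104, 99.6, 108, 106, 120 and 112 CPM.

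**Figure D4:**
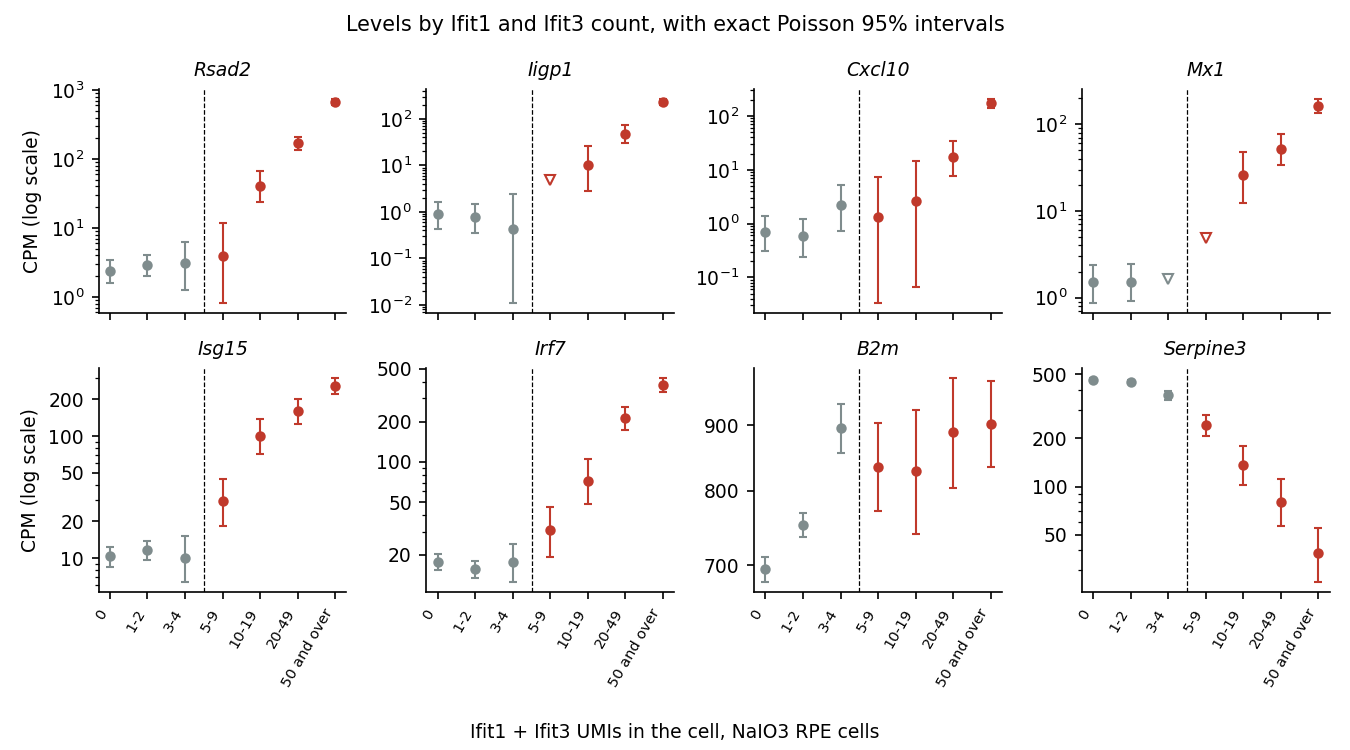
Level in CPM (vertical axes, log scale) of 8 genes in NaIO3 RPE cells grouped by their Ifit1 and Ifit3 UMIs (horizontal axes), with cells below the threshold in grey, responding cells in red, exact Poisson 95% intervals, and open triangles at the upper limit where a class had 0 UMIs. Rsad2, Iigp1, Cxcl10 and Mx1 are highest at 50 or more UMIs (677, 229, 173 and 162 CPM), B2m spans 695 to 902 CPM, and Serpine3 is lowest there, at 38.4 CPM.

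Responding cells were not alike. In 37 of them Rsad2, Iigp1 and Mx1 were all seen, and in 56 none of the 3 was. The summed interferon genes lay above 20.8 CP10K, the 95th percentile of other NaIO3 RPE cells, in 106 of the 140 cells. These were 14 of the 38 cells with 5 to 9 UMIs, 21 of the 25 with 10 to 19 and 71 of the 77 with 20 or more. The class of 5 to 9 UMIs was therefore mixed, and most of its cells lay within the range of other RPE cells. Above the median of responding cells, 35.2 CP10K, were 5 other NaIO3 RPE cells and 14 PBS RPE cells.

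Across the 140 responding cells the genes whose log levels ran most like the summed rule genes were Rsad2 (Pearson r 0.84), Gbp7 (0.83), Ifit3b (0.81), Cmpk2 (0.79) and Iigp1 (0.76), of 2868 genes ranked, whose median r was -0.03. The first 10 genes were all in the interferon lists. The first ones outside every list were Znfx1, an RNA helicase-like protein, at 0.70, 9930111J21Rik2 at 0.68, Rnf213, a large ubiquitin ligase, at 0.68 and Tor3a, a torsin ATPase, at 0.66. The lowest values were those of the metallothionein Mt2 (-0.40) and of Bsg (-0.39), a chaperone of lactate transporters. These values describe cells of 1 library that share its depth and free RNA. The rule genes chose these cells, and Ifit3b is a close copy of Ifit3. The ranking is therefore a description and not separate evidence of an interferon response.

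Summed over all responding cells, most genes of RPE function outside the rule stood at like levels in responding and other NaIO3 RPE cells. Of 61 genes of RPE function 56 had 100 UMIs, 1 was at 2-fold or more and 0 at 0.5-fold or less, and the median log2 ratio over 59 genes was -0.03. Ttr, the thyroxine and retinol carrier, stood at 68577 CPM in responding cells, 59425 in other NaIO3 RPE cells and 93683 in PBS RPE cells. Stra6, the receptor for retinol-binding protein, stood at 612, 687 and 572 CPM. Otx2 and Mitf, transcription factors of the RPE, had ratios of 0.907 (0.838 to 0.981) and 0.861 (0.721 to 1.02). The gene at 2-fold was Vax2, an eye-patterning factor, with a ratio of 2.06 (1.38 to 2.98) on 34 UMIs. Pmel, the fibril protein of melanosomes, stood at 191, 118 and 70.7 CPM, a ratio of 1.63 (1.47 to 1.80). This pooled ratio did not hold in the strongest responders. Over the classes of Ifit1 and Ifit3 UMIs used above Pmel stood at 109, 120, 148, 352, 276, 120 and 24.7 CPM. Tyrp1 stood at 176, 177, 219, 217, 127, 120 and 83.6 CPM, while Otx2 stood at 320 and 321 CPM in the first and last class. Kcnj13, a potassium channel, stood at 879, 668 and 921 CPM in responding, other NaIO3 and PBS RPE cells, a ratio of 1.32 (1.26 to 1.38). Clcn2, a chloride channel, was lowest, at 48.96, 82.4 and 55.1 CPM, a ratio of 0.594 (0.488 to 0.718).

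**Figure D5:**
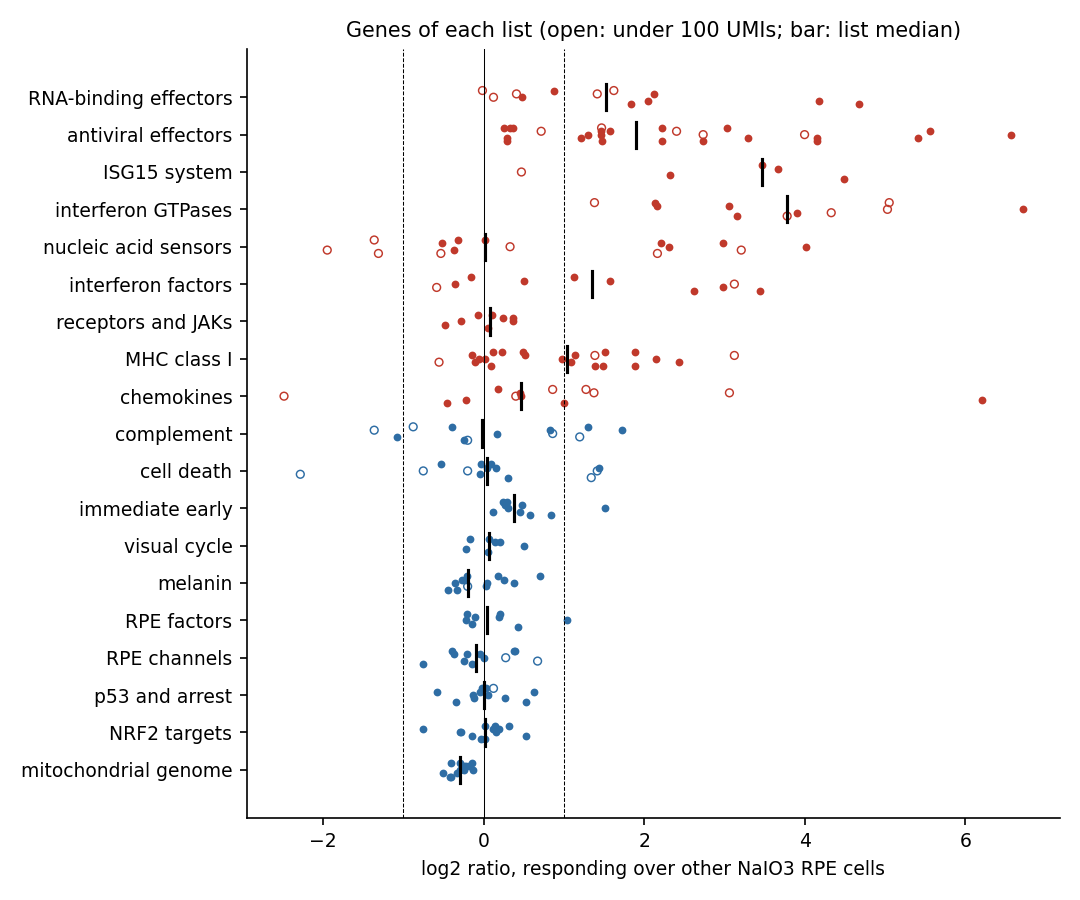
Log2 ratio of responding over other NaIO3 RPE cells (horizontal axis) for the genes of 19 lists (rows), filled at 100 or more UMIs and open at 20 to 99, with the list median as a bar and dashed lines at 2-fold. The ISG15 system and the interferon GTPases have medians of 3.46 and 3.78, the receptors and JAK kinases 0.08, and the mitochondrial genome -0.29.

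Among lower genes Serpine3, a secreted serine protease inhibitor of the serpin family, had the most counts. It stood at 128 CPM in responding cells, 448 in other NaIO3 RPE cells and 262 in PBS RPE cells, a ratio of 0.287 (0.255 to 0.321). A single responding cell, with 6 Ifit1 and Ifit3 UMIs, held 132 of the group's 299 UMIs, and without it, an alternative chosen after seeing the data, the ratio was 0.162 (0.138 to 0.188). Over the 7 classes of Ifit1 and Ifit3 UMIs Serpine3 stood at 461, 451, 370, 240, 137, 80.6 and 38.4 CPM. It was uneven between cells in every group, reaching 60.3, 173 and 210 CP10K in responding, other NaIO3 and PBS RPE cells with medians of 0, 0.306 and 0. After thinning 17.9%, 32.5% and 19.4% of cells had a UMI, and 16.1% of rod-marker barcodes did, so the share in responding cells was near that of the check. The ratio was nearer to 1 in cells of like depth (0.508), at 200 CP10K of the RPE genes (0.594), at 10% mitochondrial counts (0.481) and at 3 UMIs (0.544). The cells of like depth still held the cell with 132 Serpine3 UMIs, whose 21905 UMIs lie within their range of 8088.8 to 21980. The ratio was further from 1 at 10 UMIs (0.169), at 20 UMIs (0.122), at 5 CP10K (0.127) and after thinning (0.123). The part of depth was not tested.

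Htr3a, a serotonin-gated ion channel, stood at 21.04 CPM in responding cells, 49.1 in other NaIO3 RPE cells and 56.0 in PBS RPE cells, a ratio of 0.428 (0.315 to 0.570). Over the 7 classes it stood at 50.7, 48.2, 45.8, 39.9, 15.5, 10.9 and 10.97 CPM, and after thinning 6.43%, 16.4% and 17.8% of responding, other NaIO3 and PBS RPE cells had a UMI, against 0 of 56 rod-marker barcodes, which allows up to 5.36%. It was thus lower in the strongest responders, where 1 of 77 thinned cells had a UMI. Upk3b, a uroplakin, and Lgi1, a secreted protein known from synapses, had ratios of 0.469 (0.360 to 0.603) and 0.464 (0.313 to 0.665). Wfikkn2, a secreted binder of GDF8 and GDF11, had 0.540 (0.487 to 0.597), but 0.836 in cells of like depth. Slc7a5, a transporter of large neutral amino acids, stood at 69.1, 128 and 46.3 CPM, a ratio of 0.540 (0.458 to 0.633), and 0.813 in cells of like depth. Srf, a factor of actin genes, and Mgat3, an N-glycan transferase, had 0.342 and 0.406 on 9 and 15 UMIs. The other 7 of the 15 lower genes named by the rule, Inppl1, Arhgap28, Wnk4, Incenp, Plxna1, Nrbp2 and Parn, had ratios of 0.266 to 0.569.

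Of the 20 higher genes named by the same rule 1 rested on a single cell. Edn3, an endothelin, stood at 32.6 CPM in responding cells, 2.80 in other NaIO3 RPE cells and 6.77 in PBS RPE cells, a ratio of 11.7 (8.32 to 16.3), but 1 cell held 73 of its 76 UMIs. That cell had 39416 UMIs, held 219 of 227 UMIs of Ptn and 285 of 310 of Dcn, a fibroblast proteoglycan, and had fibroblast markers at 77.6 CP10K and 12 Ifit1 and Ifit3 UMIs. Without barcodes that carry markers of other cells the ratio of Edn3 was 0.483.

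Stress genes showed smaller differences. All 10 immediate early genes were above 1 and 1 was at 2-fold or more: Egr1 stood at 164 CPM in responding cells, 57.3 in other NaIO3 RPE cells and 54.3 in PBS RPE cells, a ratio of 2.86 (2.55 to 3.21). The 13 genes of the mitochondrial genome were all below 1, with a summed ratio of 0.791 (0.787 to 0.794), while 17 nuclear genes of oxidative phosphorylation summed to 1.12 (1.11 to 1.14). The mitochondrial share of a cell was also a filter. Of 11 genes of p53 and growth arrest 0 reached 2-fold. Cdkn1a, an inhibitor of cell division, stood at 71.7, 46.3 and 5.74 CPM, a ratio of 1.55 (1.31 to 1.82). Responding cells thus stood above both other groups for Cdkn1a. Cdkn2a stood at 9.45, 10.3 and 0 CPM, close in both NaIO3 groups and not seen in PBS RPE cells. The part of free RNA in the levels of Cdkn1a and Cdkn2a was not tested. Of 13 NRF2 targets, 12 genes of the integrated stress response and 15 lysosomal genes 0 reached 2-fold. In the complement list C4b was at 2.46 (1.72 to 3.45), Serping1 at 3.29 with 89.7% of its UMIs in 1 cell, and C2 at 0.475 (0.291 to 0.734). Of 8 cell death genes 1 was at 2-fold or more, Daxx, at 2.70 (2.04 to 3.54).

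The 18 PBS RPE cells that passed the rule were mostly close to the threshold. Of them 12 had 5 or 6 UMIs, the highest had 26 and 20, and their median depth of 19212 UMIs was above that of the responding cells. Ifit3 made up 118 of their 148 UMIs. Rsad2 and Cxcl10 stood at 254 and 58.4 CPM in all responding NaIO3 cells and at 3.99 and 1.33 CPM in those with 5 to 9 UMIs, against 0 UMIs in the PBS cells, which allows up to 10.9 CPM. Per cell the summed interferon genes had a median of 17.8 CP10K in NaIO3 cells with 5 to 9 UMIs, with a median of 6 of the genes seen after thinning, against 14.7 CP10K and 4.5 genes in the PBS cells. At this depth the PBS cells were thus not distinguishable from that class by Rsad2 and Cxcl10, which were near 0 in both. Isg15 stood at 29.2 CPM (18.3 to 44.2) in that class and 2.95 CPM (0.0748 to 16.5) in the PBS cells. It also differed between the other NaIO3 and other PBS RPE cells, at 10.9 and 1.69 CPM. Irf7 (30.6 and 5.91 CPM) and Usp18 (37.2 and 26.6 CPM) had overlapping intervals in that class and the PBS cells. As a sum over the PBS cells that passed, the interferon genes stood at 1731 CPM, and those of the other PBS RPE cells at 956 CPM. Xaf1, an antagonist of apoptosis inhibitors, at 53.2 CPM and Usp18 at 26.6 CPM were above the 10.2 and 2.44 CPM of the other PBS RPE cells. They rest on 18 and 9 UMIs.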

How the data were processed

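The deposited matrices hold raw UMI counts per gene and barcode, made by the authors with Cell Ranger 3.0.2 and the mm10 build, per the submitters' processing notes. Not given in the sources used here are alignment settings, the annotation and what was done with reads matching more than 1 gene. The 27998 gene rows were matched by identifier to GENCODE M21 (GRCm38), the source of gene coordinates, with 27645 matches. The filters removed 114 NaIO3 and 231 PBS barcodes. Doublets were kept in the main comparison. Scrublet in scanpy 1.11.5 marked 132 NaIO3 and 171 PBS barcodes, and their removal is an alternative.

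Counts were summed over the cells of a group and given as CPM. Groups were NaIO3 (140 responding and 2130 other RPE cells) and PBS (3627 RPE cells), with 1 library each, so no test was made. Levels have exact Poisson, ratios exact conditional binomial and shares exact Clopper-Pearson intervals at 95%. Genes needed 100 UMIs over both NaIO3 groups, or 20 for list medians. Shares of cells were also taken after thinning each cell to 4000 UMIs, which left out 123 PBS RPE cells. Likeness to the rule genes is the Pearson correlation of log2(CP10K + 1). Named genes were the 20 higher and 15 lower ones whose interval bound nearest to 1 was most extreme. Predicted, mitochondrial, ribosomal, haemoglobin and sex-linked genes were not ranked, nor were 866 genes with less than 0.1 of the level of another cell class, which left 8732. 1 gene of the lists is counted in its list but not reported here by name. Genes of the lists, AU020206, Ptn, Dcn and the genes most like the rule genes are named beyond that rule. The cells, lists and rules were chosen with earlier results of these data known. The scripts (python 3.11.15, numpy 2.4.6, scipy 1.17.1, pandas 2.3.3) were tested on simulated data.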

Additional observations from a re-analysis of the deposited data

Results flagged for a closer look

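Signal of the rule genes also appeared outside the RPE. Of 1674 NaIO3 barcodes that did not pass as RPE, 222 had 5 or more UMIs of Ifit1 and Ifit3, 13.3% (11.7 to 14.98%), against 13 of 760 such PBS barcodes, 1.71% (0.914 to 2.91%). The NaIO3 barcodes were deeper, with a median of 10574 UMIs against 4210.5 in PBS, and the part of depth was not tested. Most of the 222 barcodes, 176, carried markers of surface epithelium, and 16 carried markers of macrophages.

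Among the barcodes with surface epithelium markers 176 of 707 in NaIO3 passed the threshold, 24.9% (21.7 to 28.3%), against 10 of 88 in PBS, 11.4% (5.59 to 19.9%). Among those with macrophage markers it was 16 of 505 in NaIO3, 3.17% (1.82 to 5.09%), and 2 of 119 in PBS, 1.68% (0.204 to 5.94%). The macrophage shares overlap within counting error. The shares over all such barcodes and over the surface epithelium lie outside the comparison of RPE cells and stand above those of the control library, with depth not matched.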

How the results depend on the processing

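The interferon-stimulated genes kept a positive median log2 ratio under all 18 alternatives (1.61 to 2.80, the highest at 20 UMIs), and the RPE genes stayed between -0.10 and 0.01. With 20 UMIs per gene both medians are the main ones, since list medians already used 20 UMIs. Named genes kept their side of 1 in 34 or 35 of 35 cases under each alternative, and in 18 of 18 with 500 UMIs. The exception was Edn3, with ratios of 0.113 at 5 CP10K, 0.143 after thinning, 0.319 at an RPE threshold of 200 CP10K, 0.332 in cells of like depth, 0.483 without other cells' markers and 0.301 at 20 UMIs, each of which takes the 1 cell with most of its UMIs out of the responding group. Counts depended on thresholds. Responding cells numbered 250 at 3 UMIs, 77 at 20, 53 at an RPE threshold of 200 CP10K and 76 at 10% mitochondrial counts. Passing PBS cells numbered 64 at 3 UMIs, 4 at 10, 2 at 20, 7 at 5 CP10K, 3 after thinning and 9 at an RPE threshold of 200 CP10K. Genes at 2-fold or more higher numbered 82 at 3 UMIs, 48 at 200 CP10K and 86 at 10% mitochondrial counts. With 20 or 500 UMIs per gene they numbered 394 or 33, and with a 1.5-fold limit 365. Genes at 0.5-fold or less numbered 39 at 3 UMIs, 229 at 10, 360 at 20, 210 at 5 CP10K, 288 after thinning and 58 at 10% mitochondrial counts, 623 or 9 with 20 or 500 UMIs per gene, and 620 with the 1.5-fold limit. Fewer cells or genes enter at stricter settings, and further causes were not tested. Of 614 ratios of single genes under alternatives 444 stayed within the main interval, 164 left it on the same side of 1 and 6 were reversed, all of Edn3. The settings of 20 and 500 UMIs per gene choose which genes are listed and leave each ratio as it was. Their cases among the 444, and their counts of named genes above, were thus fixed in advance. Alternatives at 20 UMIs, without other cells' markers, without shared barcodes and without the cell richest in Serpine3 were chosen after seeing the data. No paired analysis was possible because each group is 1 library. Genes with few UMIs, the DNA sensors and the interferons among them, have intervals too wide at this depth to show a difference.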

Other observations

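The responding RPE cells and the surface epithelium barcodes above the same threshold in the same library differed in the levels of their interferon genes. The rule genes themselves were higher in the RPE cells, Ifit1 at 1399.5 CPM in responding RPE cells and 590 CPM in the epithelial barcodes, and Ifit3 at 1449 and 323 CPM. Isg15 stood at 139 CPM in responding RPE cells and at 843 CPM in those epithelial barcodes, and Oasl1 at 26.2 and 218 CPM. Rsad2 ran the other way, at 254 CPM in responding RPE cells and 25.5 CPM in the epithelial barcodes. So did Mx1 (65.3 and 6.11 CPM), Cmpk2 (95.8 and 4.67 CPM), Gbp7 (178 and 18.3 CPM) and Usp18 (150 and 46.4 CPM). Irf7 was close in both, at 183 and 148 CPM. The groups hold 140 and 176 barcodes of 1 library, were both chosen by their Ifit1 and Ifit3 UMIs, and have no replicate.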
